A study of Solanum lycopersicum with 17 samples.

Results

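Transcript levels in fruit of the transgenic tomato (Solanum lycopersicum) line DefH9-IaaM were set against those in wild-type fruit that kept its seeds. The comparison rests on 6 of the 17 Affymetrix tomato arrays of the series, 3 for each group, chosen by their labels alone. DefH9-IaaM carries iaaM, a bacterial gene for tryptophan monooxygenase, which starts a route of auxin synthesis. It is driven by DefH9, a snapdragon promoter that is active in placenta and ovules. The line is parthenocarpic, that is, it sets fruit without fertilization. The same 3 arrays were also compared with 3 other groups. INO-IaaM (3 arrays) carries the same coding gene under the promoter of INNER NO OUTER, an Arabidopsis gene of the ovule. DefH9-RolB (2 arrays) carries rolB, a gene of Agrobacterium rhizogenes that changes how tissue responds to auxin, under the DefH9 promoter. The control without seeds (3 arrays) is wild-type fruit whose seeds were taken out by hand. INO-RolB (3 arrays) entered the estimate of spread and 1 plot. Each array stands for 1 plant and for RNA from a pool of 8 fruits. The labels give neither cultivar nor age or ripeness, nor the number of independent insertions behind a line.

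In tomato, growth of the ovary into a fruit normally starts after fertilization, and the young seeds are a source of auxin and gibberellin for the tissue around them. Auxin that is supplied to the ovary, or made there by a transgene, can take the place of that signal. A seedless fruit also lacks embryo, endosperm and seed coat, tissues known for storage reserves, raffinose-family sugars and flavonoids. RNA of seeded fruit is therefore a mixture of seed and fruit wall. In RNA from whole tissue, fewer cells of a type and less RNA per cell cannot be told apart. Against the control with seeds, the transgene and the loss of seeds change together and cannot be told apart. For this reason the level in the control without seeds is given for many of the named genes, though not for all. Where it is not given, a change is not to be read as one of the line apart from its seeds.

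The values are log2 RMA values, 1 for each of 10038 tested probe sets and each array, so a difference of 1 is a 2-fold difference in signal. The number of arrays limits the precision. The arrays of DefH9-IaaM correlated with each other at 0.988 to 0.993. Of the 63 reporter probe sets on the array, which match no tomato gene, 61 gave values up to 5.49 on all arrays. The highest reporter value on a wild-type array was 5.32, and a level under it, called the silent range here, was not told apart from absence. The ripe-fruit genes E8 and Psy1 were high on every array of both groups. Both lay near the highest value in the data, 14.32, so equal ripeness is not read from them. Other ripening genes are given below. E8, an ethylene-induced ripening gene, lay at 13.73 to 13.79 in DefH9-IaaM fruit and at 13.77 to 13.85 with seeds. The phytoene synthase gene Psy1 lay at 13.94 to 14.04 in DefH9-IaaM fruit, against 13.85 to 13.95 with seeds. A sign of RNA quality, the mean 5' minus 3' difference of the AFFX actin and gapdh probe sets, was -0.34, -0.70 and -0.46 in DefH9-IaaM and -0.74, -0.59 and -0.89 in the control with seeds. The 25S rRNA signal was 6.61, 7.52 and 6.93 in DefH9-IaaM, against 6.20, 5.67 and 5.69 in the control with seeds. Both measures thus moved with the groups, the first with overlap. With the first as a covariate, 878 probe sets were called in place of 1776.

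In all, 1776 of the 10038 probe sets (17.7%) differed between DefH9-IaaM and the control with seeds at an adjusted p under 0.05 (limma, Benjamini-Hochberg over all tested probe sets), which is what "called", "rose" and "fell" mean below. Of these, 954 rose (9.50%) and 822 fell (8.19%), and 3375 had an unadjusted p under 0.05. Falls were the larger: 321 probe sets fell by at least 1 on the log2 scale and 127 rose by as much, and by at least 3 there were 48 falls and 1 rise. The median change was 0.51 among those that rose and -0.79 among those that fell, where the median of all 10038 was 0.05. Both group means lay in the silent range for 179 of the called probe sets. A further 111 fell into that range from above it, and 60 rose out of it. The 3 arrays of 1 group did not overlap those of the other for 1708 of the 1776 called probe sets, and for 35.0% of all probe sets. Only 909 probe sets carry a gene name in the annotation used here, and 187 of them were called, 97 higher and 90 lower. Counts in the gene lists below stand against the 9.50% called higher, the 8.19% called lower and the overall median of 0.05. The lists are short, so in many of them 1 member is more than such a share.

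**Figure D1:**
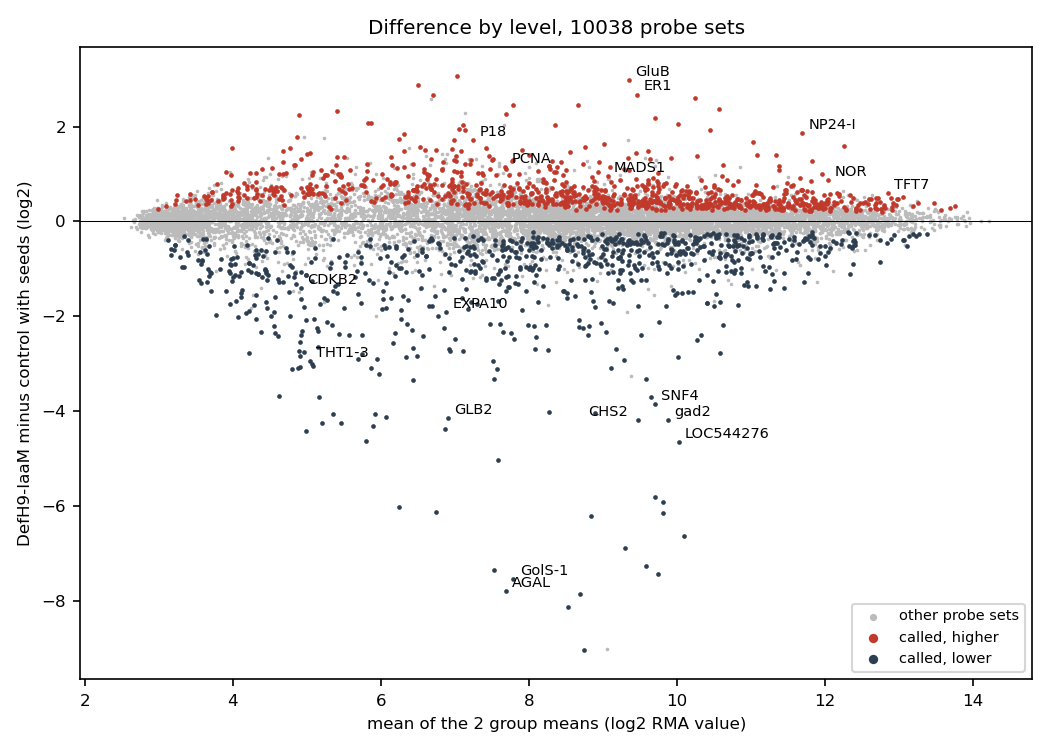
Difference between DefH9-IaaM and the control with seeds (log2, vertical axis) against the mean of the 2 group means (log2 RMA value, horizontal axis), 1 point per probe set, with 954 called higher and 822 called lower in colour. The falls reach past -8, whereas 1 called rise exceeds 3.

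The rule for naming genes gave 86 called genes and probe sets. Of these, 36 kept their call when any 1 of the 6 arrays was left out, when the 2 groups were fitted alone, with that 5' minus 3' measure as covariate and with a replicate block. A called gene named below is 1 of the 36 unless losses are given, and those given are not in every case all of its losses. The DefH9-IaaM mean lay in the silent range, and the seeded mean above it, for AGAL, GolS-1, GLB2, THT1-3, THOM1, TSI-1, ACS3, CDKB2, GABA-TP2, AAP3, LKT1, CRTL-E-1, opr2, PT2 and both unnamed probe sets with the largest falls. For these the size of a fitted fall depends on values near background and is not a measured ratio. Across the 86, 45 kept their call without any 1 array, 41 lost it with the covariate and 36 lost it when the 2 groups were fitted alone. A replicate block ended 4 calls.

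The largest falls among named genes were those of the raffinose pathway. Galactinol synthase makes the donor for raffinose-family sugars, which seeds store, and alpha-galactosidase splits them again. The alpha-galactosidase gene AGAL gave 4.91, 3.17 and 3.28 on the DefH9-IaaM arrays, against 11.80, 10.86 and 12.12 with seeds. The galactinol synthase gene GolS-1 gave 4.79, 3.87 and 3.40 in DefH9-IaaM fruit, against 11.74, 11.01 and 11.92 with seeds. All 6 DefH9-IaaM values lay in the silent range, and none came near a value with seeds. AGAL fell by 7.80 ± 1.27 (SE of the fit, n = 3 arrays in each group, adjusted p = 0.00135 by limma), and GolS-1 fell by 7.54 ± 1.07 (adjusted p = 0.00053). Fruit whose seeds had been taken out by hand spanned 3.73 to 7.96 for AGAL and 4.91 to 7.95 for GolS-1, so that both genes reached into the silent range there too. Against it the differences of -1.81 ± 1.27 and -2.50 ± 1.07 did not pass the test (limma adjusted p = 0.417 and 0.179). These 2 genes are all members of the raffinose list.

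The genes for isocitrate lyase and a glutamate decarboxylase were also far lower, while most genes listed with them were not called. Isocitrate lyase of the glyoxylate cycle, which turns stored fat into sugar, is the gene LOC544276 (synonym ICL). Its signal was 7.47, 8.29 and 7.32 in DefH9-IaaM fruit, against 12.48, 12.01 and 12.55 with seeds, a fall by 4.65 ± 0.63 (limma adjusted p = 0.00035). Without seeds it stood in between, at 9.11 to 10.50. The gene listed as gad2, for glutamate decarboxylase, which makes GABA, gave 7.55, 8.25 and 7.55 in DefH9-IaaM fruit, against 12.07, 11.64 and 12.23 with seeds. Its fall by 4.20 ± 0.47 (limma adjusted p = 7.03e-05) put it in the range of the control without seeds, 6.83 to 8.62. GABA-TP2, a GABA transaminase, which breaks GABA down, fell by 1.47 ± 0.28 (adjusted p = 0.00392), to 5.29 ± 0.15 in DefH9-IaaM fruit, against 6.76 ± 0.32 with seeds (SD, n = 3 each). The control without seeds spanned the same level, at 4.78 to 5.66. The other called gene of the GABA, arginine and polyamine list was ADC, arginine decarboxylase, at -0.40 ± 0.11 (limma adjusted p = 0.0249). ADC lost its call without DefH9-IaaM replicate 1 or 3 or any 1 array with seeds, with the 2 groups alone and with the covariate. In that list 3 of 9 genes fell, against 8.19% of all probe sets, none rose, and the median was -0.30. Among 10 genes of organic acids and the glyoxylate cycle 2 fell and 2 rose, with a median of 0.06. The second fall there was chMDH, a malate dehydrogenase, at -0.76 ± 0.23 (adjusted p = 0.0349). The rises were those of mMDH1 by 0.39 ± 0.09 (adjusted p = 0.0089) and of cMDH, described below. chMDH lost its call without any 1 of 5 arrays, and both it and mMDH1 lost it with the 2 groups alone and with the covariate.

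Of 9 phenylpropanoid and flavonoid genes 2 fell, CHS2 and THT1-3, and none rose, against 8.19% of all probe sets called lower. CHS2 is a chalcone synthase, the entry to flavonoid synthesis, and it gave 6.78, 8.72 and 6.64 in DefH9-IaaM fruit, against 11.53, 11.09 and 12.10 with seeds. It fell by 4.20 ± 0.63 (limma adjusted p = 0.00077), with DefH9-IaaM replicate 2 about 2 units above its 2 partners. Without seeds it lay at 7.45 to 8.09, within the spread of DefH9-IaaM. THT1-3, a tyramine hydroxycinnamoyl transferase, gave 3.28, 3.92 and 3.49 in DefH9-IaaM fruit, all in the silent range, against 6.55, 5.89 and 7.10 with seeds. THT1-3 fell by 2.95 ± 0.33 (adjusted p = 7.52e-05). The control without seeds was also in the silent range for it, at 3.35 to 4.81. The list's median was -0.59, and 3 of its genes had both means in the silent range. Next in size were CHS1, a second chalcone synthase, at -1.77 ± 0.58 (adjusted p = 0.0512), and DFR, dihydroflavonol reductase, at -1.70 ± 0.56 (adjusted p = 0.0505). Both missed the threshold, and in both the 3 arrays with seeds spread over more than 2 units (CHS1 9.25, 7.96 and 10.23, DFR 6.33, 4.44 and 7.46).

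SnRK1 is a kinase complex that senses low energy. Its gamma-type subunit gene SNF4 gave 7.99, 7.88 and 7.44 in DefH9-IaaM fruit, against 11.65, 11.50 and 11.73 with seeds. The fall by 3.86 ± 0.30 (limma adjusted p = 5.1e-06) had an SE above the median of 0.14 over all probe sets, and the control without seeds stood above DefH9-IaaM at 8.50 to 9.13. GAL83, which codes for a beta-type subunit, gave 8.15, 8.49 and 7.83 in DefH9-IaaM fruit, against 9.14, 8.96 and 8.90 with seeds, and fell by 0.84 ± 0.15 (adjusted p = 0.00269). SNF1, the catalytic subunit, differed by -0.35 and Sip1 by 0.11, and neither was called, so 2 of the 4 listed genes fell and the median was -0.60.

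GLB2, a plant haemoglobin gene, gave 4.89, 4.77 and 4.82 on the DefH9-IaaM arrays, against 8.72, 9.17 and 9.06 with seeds. All 3 DefH9-IaaM values lay in the silent range, close to each other. GLB2 fell by 4.16 ± 0.32 (limma adjusted p = 4.6e-06). The control without seeds gave 5.07 to 6.36, and DefH9-RolB, with 7.60 and 6.80, stood well above DefH9-IaaM. THOM1, a homeobox gene, gave 4.05, 5.01 and 4.41 in DefH9-IaaM fruit and 7.32, 7.39 and 7.49 with seeds, a fall by 2.91 ± 0.35 (adjusted p = 0.000132). Without seeds THOM1 gave 4.24 to 5.69. Its second probe set differed by 0.07 (adjusted p = 0.694), so the probe sets of THOM1 disagree. TSI-1, a stress-induced gene of the pathogenesis-related class, gave 3.67, 4.96 and 4.41 in DefH9-IaaM fruit, against 7.88, 6.48 and 7.04 with seeds. It fell by 2.79 ± 0.49 (adjusted p = 0.00242), and the control without seeds, at 5.29 to 6.45, lay between them. AAP3, an amino acid permease, fell by 2.12 ± 0.28 (adjusted p = 0.000314), to 4.21 ± 0.19 in DefH9-IaaM fruit, against 6.33 ± 0.77 with seeds (SD, n = 3 each). A second permease gene, AAP2, at -0.97 ± 0.30 (adjusted p = 0.0422), lost its call without any 1 of 5 arrays, with the 2 groups alone and with the covariate. Against the control without seeds AAP2 differed by -1.57 ± 0.30 (limma adjusted p = 0.0144). That call was lost without DefH9-IaaM replicate 1 or 3 or control without seeds replicate 1. In the list of amino acid permeases and nitrogen genes 2 of 10 fell and none rose, with a median of -0.16. Against the control without seeds 3 of the 10 were called lower and none higher, where 3.16% of all probe sets were called lower.

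The other 2 of the 12 largest falls lost their call when single arrays were left out. The lipid transfer protein gene ltpg1 gave 7.95, 8.48 and 7.33 in DefH9-IaaM fruit and 11.68, 10.06 and 11.98 with seeds. Its difference of -3.32 ± 0.78 (limma adjusted p = 0.0117) was no longer called when replicate 3 with seeds was left out (adjusted p = 0.052) and with the covariate. TSW12, another lipid transfer protein gene, was not called at -3.26 ± 1.29 (adjusted p = 0.0952), and 1 DefH9-IaaM array was at 4.59 for it and the others at 8.94 and 9.69. Of 3 lipid transfer and cuticle genes 1 fell and none rose, with a median of -3.26. LOC543942, which has no further name in the annotation, differed by -2.73 ± 0.78 (adjusted p = 0.0292). DefH9-IaaM replicate 3 was at 3.98 for it and the others at 6.28 and 6.43. Its call was lost without that array, without any 1 array with seeds, with the 2 groups alone and with the covariate.

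**Figure D2:**
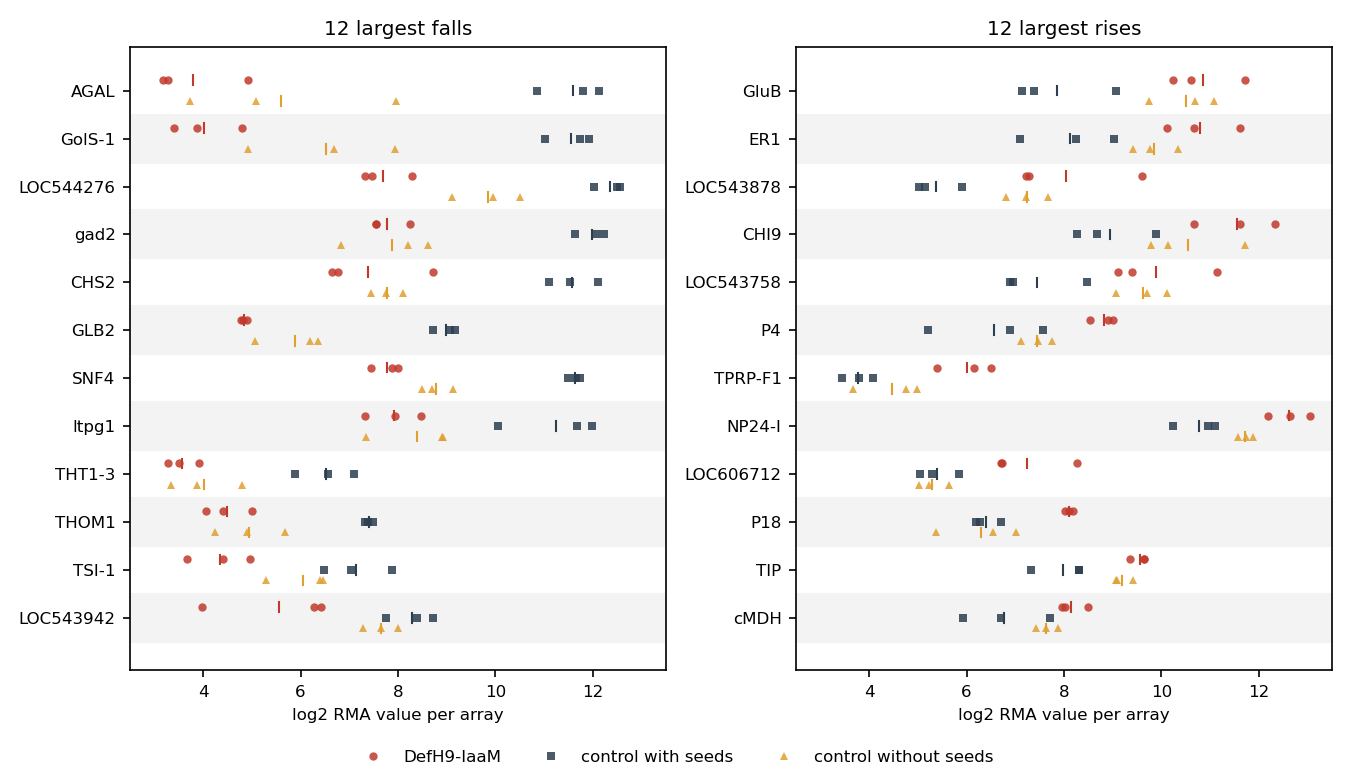
Level on each array (log2 RMA value) of the 12 named genes with the largest falls (left) and the 12 with the largest rises (right) in DefH9-IaaM against the control with seeds, with the control without seeds below them and short bars at group means. For AGAL and GolS-1 all DefH9-IaaM arrays lie under 5 and all arrays with seeds above 10, whereas the rises span smaller distances.

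Of the 12 largest rises of named genes, 6 were on the list of defence proteins. Of 21 listed defence genes 7 rose and 1, TSI-1, fell, with a median of 0.57, against 0.05 for all probe sets and a background of 9.50% called higher. NP24-I, an osmotin-like antifungal protein, gave 12.18, 12.64 and 13.06 in DefH9-IaaM fruit, against 10.96, 11.09 and 10.24 with seeds. NP24-I rose by 1.86 ± 0.29 (limma adjusted p = 0.000939), and the control without seeds lay between the groups at 11.56 to 11.87. ER1, an ethylene-responsive proteinase inhibitor, gave 10.12, 10.66 and 11.62 in DefH9-IaaM fruit, against 8.25, 9.03 and 7.10 with seeds. ER1 rose by 2.68 ± 0.54 (adjusted p = 0.00508). Its level without seeds was 9.41 to 10.35, so that control overlapped the lowest DefH9-IaaM array. For both, the difference from the control without seeds did not pass the test (0.90 and 0.96, adjusted p = 0.0825 and 0.30).

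The other 5 listed defence rises each lost their call under at least 1 left-out array. GluB, a basic beta-1,3-glucanase, gave 10.23, 10.60 and 11.71 in DefH9-IaaM fruit, against 7.37, 9.06 and 7.14 with seeds, a rise by 2.99 ± 0.72 (limma adjusted p = 0.0131). CHI9, a chitinase, gave 10.67, 11.61 and 12.34 in DefH9-IaaM fruit, against 8.68, 9.89 and 8.27 with seeds, a rise by 2.60 ± 0.71 (adjusted p = 0.0232). Both enzymes attack fungal cell walls. Neither kept its call without DefH9-IaaM replicate 3, without seeded replicate 1 or 3, or with the covariate. P4, a pathogenesis-related protein, gave 8.53, 8.91 and 9.01 in DefH9-IaaM fruit and 7.56, 6.90 and 5.21 with seeds, a rise by 2.26 ± 0.66 (adjusted p = 0.0316). Any 1 DefH9-IaaM array left out, or replicate 3 of the control with seeds, ended the call of P4. LOC543878 (synonym PR5) differed by 2.67 ± 0.82 (adjusted p = 0.0385), with 7.29, 7.21 and 9.60 in DefH9-IaaM fruit and 5.16, 5.91 and 5.03 with seeds. LOC543758, without a further name and not on the list, rose by 2.45 ± 0.75 (adjusted p = 0.0394), and its second probe set was called higher too (1.48, adjusted p = 0.0256). At its first probe set the control without seeds gave 9.07 to 10.11, against 9.11, 9.40 and 11.15 in DefH9-IaaM fruit. LOC543878 lost its call without any 1 of 5 arrays and LOC543758 without any 1 of 4. These 2 and P4 also lost it with the 2 groups alone and with the covariate. The seventh listed rise, LAPA2, a leucine aminopeptidase named here after its values were seen, came to 0.20 ± 0.06 (adjusted p = 0.0378) and was lost without any 1 of 5 arrays, with the 2 groups alone, after a repeated quantile normalization, with the covariate and with the replicate block.

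These 7 genes, LAPA2 left out, moved up and down across the arrays of a group as well as between groups. DefH9-IaaM replicate 3 was the highest of its group for all 7. Outside DefH9-IaaM, INO-IaaM replicate 1 gave 12.07 for GluB and 12.83 for CHI9, while replicate 2 of the same line gave 9.29 and 10.87. Fruit without seeds reached 11.09 for GluB and 11.72 for CHI9, inside the DefH9-IaaM range. These 7 were chosen for the plot after their values were seen. Listed genes with differences of like size that did not pass were P69B, a subtilisin-like protease, at 2.28 ± 1.08 (limma adjusted p = 0.155) and CEVI-1, a peroxidase, at 1.78 ± 0.98 (adjusted p = 0.223).

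**Figure D3:**
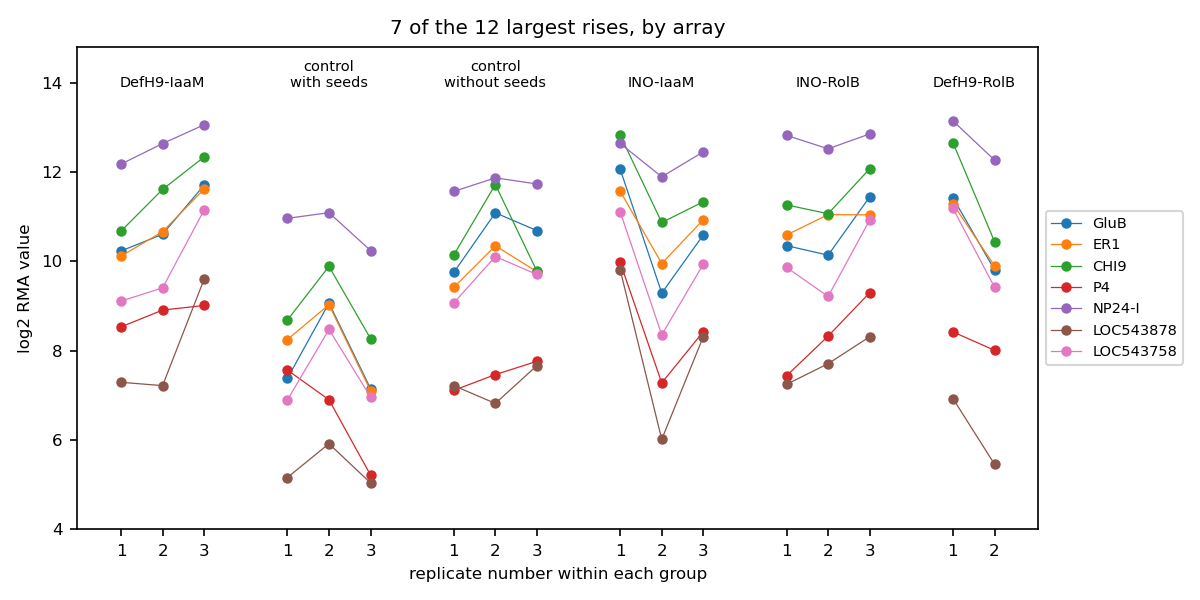
Level (log2 RMA value) of 7 of the 12 genes with the largest rises on all 17 arrays, by group, with lines joining arrays of a group that imply no order. As group means the levels in the control with seeds are the lowest for all 7, and replicates of 1 group differ by over 2 units for GluB in INO-IaaM.

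Other large rises had separate roles. P18 codes for a dUTPase, which keeps uracil out of DNA and is used in replicating cells. It gave 8.02, 8.10 and 8.18 in DefH9-IaaM fruit, against 6.70, 6.19 and 6.28 with seeds, and 5.37 to 7.01 without. P18 rose by 1.71 ± 0.31 (limma adjusted p = 0.00273), and the DefH9-IaaM arrays lay above every array of both controls. TPRP-F1, which codes for a proline-rich protein known from young fruit, gave 6.15, 5.38 and 6.50 in DefH9-IaaM fruit, against 4.09, 3.78 and 3.44 with seeds. The rise of 2.24 ± 0.56 (adjusted p = 0.0159) started in the silent range. Its call ended when DefH9-IaaM replicate 1 or 3 or seeded replicate 3 was left out, and with the covariate. The aquaporin gene TIP, of the vacuole membrane, rose by 1.58 ± 0.38 (adjusted p = 0.0138), to 9.55 ± 0.16 in DefH9-IaaM fruit, against 7.97 ± 0.56 with seeds (SD, n = 3 each), a call that ended without seeded replicate 2 and with the covariate. Without seeds TIP lay at 9.06 to 9.42. For cMDH, the cytosolic malate dehydrogenase, the rise by 1.38 ± 0.43 (adjusted p = 0.0405) was lost without any 1 of 5 arrays, with the 2 groups alone and with the covariate. LOC606712 (synonyms TERF1 and erf1a), an ethylene response factor, gave 6.73, 6.71 and 8.26 in DefH9-IaaM fruit, against 5.28, 5.85 and 5.05 with seeds. Its rise by 1.84 ± 0.44 (adjusted p = 0.0131) was lost without DefH9-IaaM replicate 3 or seeded replicate 3, with the 2 groups alone and with the covariate.

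Genes of DNA replication and the cell cycle moved both ways against the control with seeds. PCNA, the sliding clamp of the replication fork, gave 8.11, 8.18 and 8.46 in DefH9-IaaM fruit, against 7.13, 7.13 and 7.05 with seeds and 6.96 to 7.43 without. PCNA rose by 1.15 ± 0.19 (limma adjusted p = 0.00136), clear of both controls on every array. CDKB2, a kinase of the mitotic phase, went the other way, with 4.35, 3.93 and 4.38 in DefH9-IaaM fruit and 5.41, 5.43 and 6.04 with seeds. It fell by 1.41 ± 0.20 (adjusted p = 0.000478) into the silent range, where the control without seeds also lay (4.07 to 4.56). CDKB1, of the same kinase class, was called higher by 0.45 ± 0.12 (adjusted p = 0.0208) with both means in the silent range, so no change of it is read. Its call was lost without any 1 of 4 arrays, with the 2 groups alone and with the covariate. CDKA1, the general cell cycle kinase, was called lower at -0.66 ± 0.21 (adjusted p = 0.0465). CDKA1 was outside the naming rule and is named after its value was seen, and its call was lost without any 1 of 4 arrays, with the 2 groups alone and with the covariate. Of 15 listed genes 3 rose and 2 fell, with a median of -0.04. Against the control without seeds 4 of the 15 were called higher and none lower, where 1.81% of all probe sets were called higher. CDKB1, in the silent range, was 1 of these 4, and CDKB2 differed there by -0.13 (limma adjusted p = 0.734). The 5 listed cyclins, CycA1, CycA2, CycA3, CycB2 and CYCD3, lay between -0.21 and 0.23 without a call.

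Of 9 MADS-box factors of flower and fruit 3 rose and none fell, against 9.50% of all probe sets called higher, and 6 were not called. The median was 0.24. MADS1, a factor of the SEPALLATA type, gave 9.09, 9.72 and 9.80 in DefH9-IaaM fruit, against 8.62, 8.76 and 8.38 with seeds. MADS1 rose by 0.95 ± 0.15 (limma adjusted p = 0.00121), and TDR8 rose by 0.67 ± 0.13 (adjusted p = 0.00436). TDR4, a FRUITFULL-like factor, rose by 0.49 ± 0.09 (adjusted p = 0.00281), to 12.94 ± 0.14 in DefH9-IaaM fruit, against 12.45 ± 0.08 with seeds (SD, n = 3 each). For MADS1 and TDR8 the control without seeds, at 9.44 to 9.52 and 10.90 to 11.23, stood in the DefH9-IaaM range or above it. The ripening factor RIN differed by 0.24 and AG1, an AGAMOUS-like factor, by 0.04, and neither was called.

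NOR, a NAC factor that is needed for ripening, gave 12.54, 12.17 and 12.72 in DefH9-IaaM fruit, against 11.61, 11.65 and 11.57 with seeds and 11.71 to 11.92 without. It rose by 0.87 ± 0.13 (limma adjusted p = 0.000841), above every wild-type array. In the list of fruit-specific and ripening genes 2 of 8 rose, NOR and TPRP-F1, and GLB2 fell, with a median of 0.40. E8 differed by -0.05, the fruit-specific gene 2A11 by 0.02 and the polygalacturonase gene PG2 by 0.55 ± 0.28 (adjusted p = 0.19), all without a call.

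Ethylene drives ripening in tomato. Ethylene synthesis runs through ACC synthase and ACC oxidase, and its signal passes from receptors through CTR kinases to EIN3-like (EIL) and ERF factors. The ACC synthase gene ACS3 gave 4.88 ± 0.69 in DefH9-IaaM fruit, against 7.45 ± 0.42 with seeds (SD, n = 3 each), and the groups did not overlap. It fell by 2.57 ± 0.50 (limma adjusted p = 0.00392), and the control without seeds was as high as the control with seeds, at 7.17 to 9.13. ACS2, the ACC synthase of ripening, differed by 0.29 ± 0.20 (adjusted p = 0.316). SAM1, for S-adenosylmethionine synthetase, was called lower at -0.40 ± 0.09 (adjusted p = 0.0115) and lost the call without DefH9-IaaM replicate 3 and with the 2 groups alone. Of 13 genes of ethylene synthesis 2 fell and none rose, with a median of -0.17.

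Of 27 genes of ethylene perception and signalling 5 rose and 3 fell, with a median of -0.01. The repressor kinase gene CTR1 gave 10.42, 10.43 and 10.65 in DefH9-IaaM fruit, against 9.74, 9.78 and 9.74 with seeds, and rose by 0.75 ± 0.11 (limma adjusted p = 0.000721). EIL2 gave 9.82, 10.61 and 10.41 in DefH9-IaaM fruit, against 11.51, 11.57 and 11.86 with seeds, and fell by 1.37 ± 0.21 (adjusted p = 0.000782). The control without seeds lay between the groups for both, at 10.11 to 10.28 for CTR1 and 10.65 to 10.79 for EIL2. JERF3, an ERF-type factor, rose by 0.50 ± 0.10 (adjusted p = 0.00647). The receptor gene ETR5 fell by 0.75 ± 0.16 (adjusted p = 0.00663), a call lost with the 2 groups alone and with the covariate. Named after their values were seen, EIL4 (0.40), the receptor gene ETR4 (0.26) and EIL3 (-0.41) were also called, and each lost its call without at least 1 array, with the 2 groups alone and with the covariate. The remaining rise was that of LOC606712.

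Auxin and gibberellin genes gave few calls above the silent range. Of 9 auxin response genes, each at its brightest probe set, 2 were called lower and none higher. Their median was 0.01, and 4 had both means in the silent range. Over all 16 probe sets of these genes, 1 was called higher and 2 lower. IAA2, an Aux/IAA repressor, was called lower within that range, so no change is read, and its second probe set differed by 0.06. IAA27, of the same family, gave 6.91 ± 0.16 in DefH9-IaaM fruit, against 7.60 ± 0.28 with seeds (SD, n = 3 each). Its difference of -0.69 ± 0.23 (limma adjusted p = 0.0489) was lost without any 1 of 5 arrays, after median centring, with the 2 groups alone and with the covariate, and its second probe set differed by -0.08. IAA3, the brightest listed Aux/IAA gene with a level near 11, differed by -0.27 ± 0.14 (adjusted p = 0.21). Of 8 gibberellin genes 3 were called lower, against 8.19% of all probe sets, and none higher, with a median of -0.19, and 5 had both means in the silent range. The gibberellin synthesis genes 20ox-2, a GA 20-oxidase, and CPS, copalyl diphosphate synthase, were 2 of these, and both were in the silent range in both groups. CPS also lost its call with the 2 groups alone. SPY, a repressor of gibberellin signalling, was the third, at -0.28 ± 0.08 (adjusted p = 0.0263), lost without any 1 of 4 arrays, with the 2 groups alone and with the covariate.

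Beta-galactosidases trim galactan side chains of the cell wall, and their 7 genes did not move together. TBG2 gave 8.43, 8.68 and 8.66 in DefH9-IaaM fruit, against 9.70, 9.47 and 9.83 with seeds, and fell by 1.08 ± 0.11 (limma adjusted p = 3.06e-05). Its control without seeds, at 9.27 to 9.29, also lay above DefH9-IaaM. TBG7 gave 8.10, 8.57 and 7.83 in DefH9-IaaM fruit, against 7.21, 6.78 and 6.59 with seeds, and rose by 1.31 ± 0.27 (adjusted p = 0.00598). TBG1 rose by 0.74 ± 0.13 (adjusted p = 0.00225), to 9.82 ± 0.16 in DefH9-IaaM fruit, against 9.09 ± 0.17 with seeds (SD, n = 3 each). The other 4 stayed between -0.22 and 0.51 without a call, so that 2 rose and 1 fell, with a median of -0.08.

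Among 42 other cell wall genes 2 rose and 2 fell, with a median of 0.06, and 15 had both means in the silent range. EXPA10, an expansin, which loosens the wall, gave 5.83, 5.87 and 6.05 in DefH9-IaaM fruit, against 7.86, 7.17 and 8.49 with seeds. EXPA10 fell by 1.92 ± 0.31 (limma adjusted p = 0.00128), and the control without seeds was lower still, at 5.21 to 5.53. PME2.1, a pectin methylesterase, rose by 0.66 ± 0.12 (adjusted p = 0.00321), to 12.02 ± 0.09 in DefH9-IaaM fruit, against 11.36 ± 0.13 with seeds (SD, n = 3 each). PE1, a pectinesterase, at 0.39 ± 0.11 (adjusted p = 0.0255), and exp18, an expansin called lower within the silent range, each lost the call without any 1 of 3 arrays, with the 2 groups alone and with the covariate. XTH1, a xyloglucan endotransglucosylase, and XYL1 differed by 1.19 and 1.18 and were not called (adjusted p = 0.108 and 0.132).

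Of 24 sugar and starch genes, sus3, a sucrose synthase, was called higher at 0.36 ± 0.11 (limma adjusted p = 0.0382) and the cell wall invertase gene lin5 lower, with a median of 0.09 over the list. For lin5 the DefH9-IaaM arrays gave 7.09, 4.98 and 5.21, against 8.34, 6.66 and 9.75 with seeds and 8.46 to 8.69 without. The difference of -2.49 ± 0.78 (adjusted p = 0.0409) came from groups that overlap, and it was lost without any 1 of 4 arrays, with the 2 groups alone, with the covariate and with the replicate block (adjusted p = 0.0635). The call of sus3 was lost without any 1 of 5 arrays, with the 2 groups alone and with the covariate. In the carotenoid and isoprenoid list 1 of 19 rose and 1 fell, with a median of 0.07. These were FPPS1, farnesyl diphosphate synthase, at 0.59 ± 0.18 (adjusted p = 0.0347), and CRTL-E-1, lycopene epsilon-cyclase, at -1.37 ± 0.38 (adjusted p = 0.0256). FPPS1 lost its call without any 1 of 5 arrays and CRTL-E-1 without any 1 of 3. Both lost it with the 2 groups alone, and CRTL-E-1 with the covariate.

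FLACCA codes for the enzyme that activates the cofactor of aldehyde oxidase, the last step of abscisic acid synthesis. It gave 8.81, 9.02 and 9.04 in DefH9-IaaM fruit, against 9.82, 9.71 and 10.11 with seeds, and the control without seeds matched DefH9-IaaM at 8.79 to 9.14. FLACCA fell by 0.92 ± 0.13 (limma adjusted p = 0.00057), the 1 call among 10 genes of abscisic acid and dehydration, whose median was -0.21. The dehydrin gene TAS14 differed by -1.55 ± 0.56 (adjusted p = 0.069).

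In the ascorbate and glutathione list 3 of 21 genes rose and 2 fell, with a median of 0.11. LOC543607 (synonym ctu2) gave 7.12, 7.17 and 7.51 in DefH9-IaaM fruit, against 8.82, 8.52 and 9.59 with seeds, and fell by 1.71 ± 0.22 (limma adjusted p = 0.000273). Its control without seeds was at 7.46 to 7.57. The related entry ctu1 was called lower at -1.57 ± 0.37 (adjusted p = 0.0113), lost without control with seeds replicate 3 and with the covariate. Without seeds ctu1 gave 3.97 to 5.28, under the DefH9-IaaM mean of 5.51. MDHAR, which recycles ascorbate, rose by 0.72 ± 0.16 (adjusted p = 0.00918), to 8.33 ± 0.20 in DefH9-IaaM fruit, against 7.61 ± 0.18 with seeds (SD, n = 3 each), and lost the call with the covariate. GPXle-2, a glutathione peroxidase, was called higher at 0.34 ± 0.09 (adjusted p = 0.0159) and lost the call without any 1 of 3 arrays, with the 2 groups alone and with the covariate. The potassium channel gene LKT1 was called lower at -0.88 ± 0.22 (adjusted p = 0.0145), lost without DefH9-IaaM replicate 1 or seeded replicate 3 and with the covariate. TIP and LKT1 were the calls among 8 aquaporin and ion transport genes, whose median was -0.11.

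**Figure D4:**
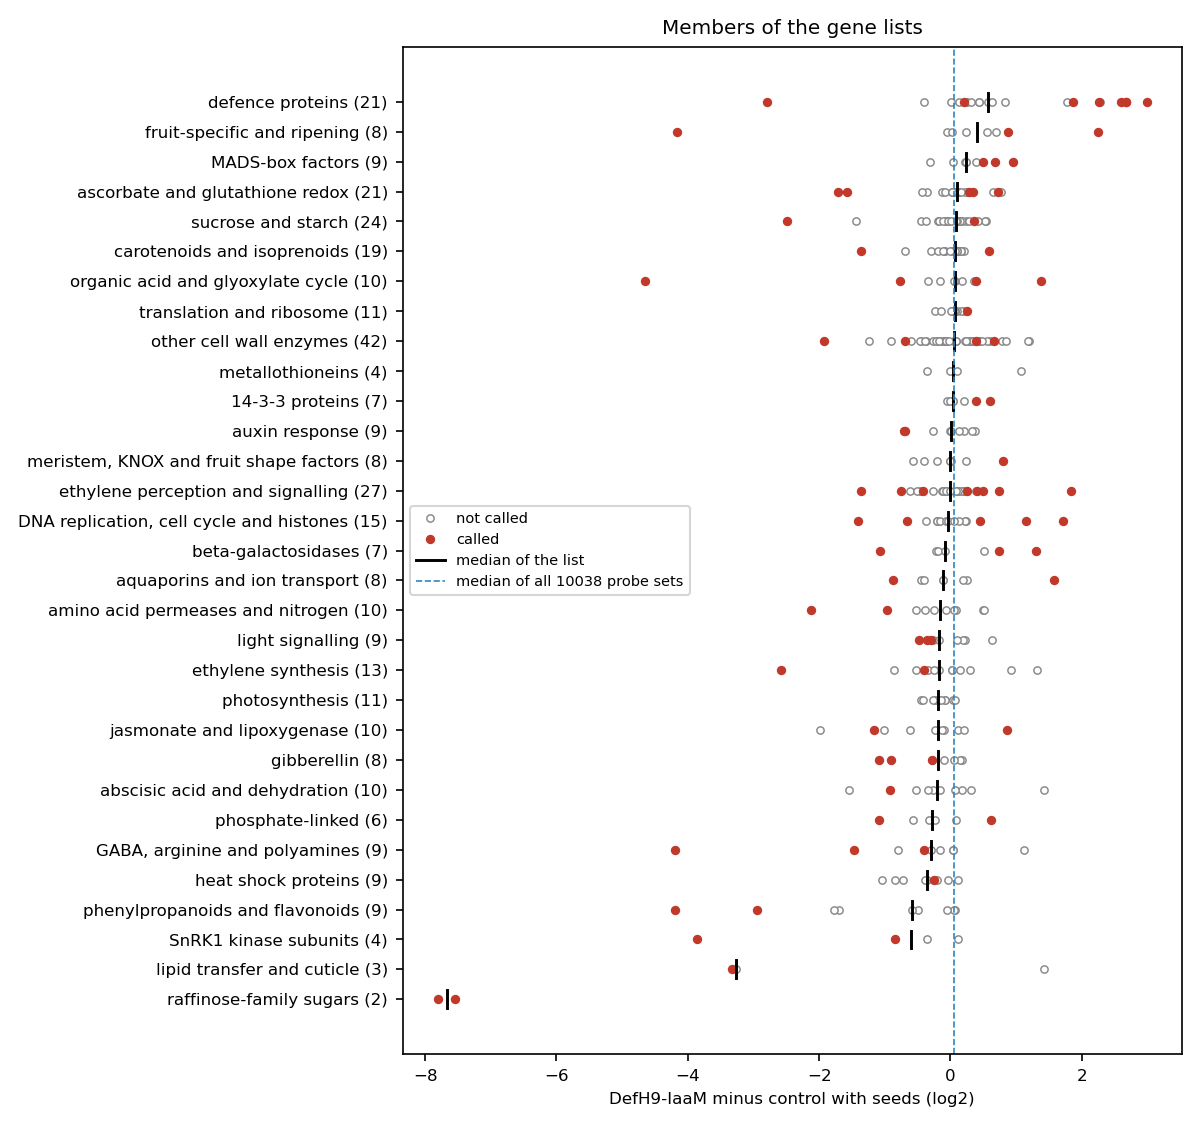
Difference between DefH9-IaaM and the control with seeds (log2, horizontal axis) for each member of the gene lists, called or not, with the median of each list and of all 10038 probe sets (0.05). The raffinose list lies at -7.80 and -7.54, and most other lists hold calls on both sides or few calls around the overall median.

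The control without seeds held seeds until they were taken out by hand. In this comparison the transgene, growth without seeds and that removal cannot be told apart. Against this control 499 probe sets were called (4.97%), 182 higher (1.81%) and 317 lower (3.16%), with 2402 at an unadjusted p under 0.05. The comparison shares the DefH9-IaaM arrays with the one against the control with seeds. Among named genes P18, ACS3, TBG2 and the 3 below kept their call without any 1 array. The difference was 1.79 ± 0.31 for P18 (limma adjusted p = 0.00886), -3.08 ± 0.50 for ACS3 (adjusted p = 0.00679) and -0.69 ± 0.11 for TBG2 (adjusted p = 0.00602). SODCP.2, a copper-zinc superoxide dismutase of the plastid, gave 11.12, 10.64 and 10.80 in DefH9-IaaM fruit, against 9.59, 8.96 and 9.61 without seeds, and rose by 1.47 ± 0.21 (adjusted p = 0.00559). With seeds it stood between them at 10.07 to 10.36. PLDb2, a phospholipase D, gave 7.43, 8.17 and 7.62 in DefH9-IaaM fruit, against 9.73, 9.60 and 9.41 without seeds, and fell by 1.84 ± 0.27 (adjusted p = 0.00559). For yfe37, a gene with no further name here, the fall was by 2.45 ± 0.41 (adjusted p = 0.00846), to 5.34 ± 0.73 in DefH9-IaaM fruit, against 7.79 ± 0.11 without seeds (SD, n = 3 each). PLDb2 and yfe37 also fell against the control with seeds, by 1.47 ± 0.27 (adjusted p = 0.00313) and 1.87 ± 0.41 (adjusted p = 0.0079), and both lost that call with the 2 groups alone.

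Further named genes were called against the control without seeds with less support. PCNA differed by 0.99 ± 0.19 (limma adjusted p = 0.0135), NOR by 0.65 ± 0.13 (adjusted p = 0.0171) and the 14-3-3 gene TFT7 by 0.52 ± 0.11 (adjusted p = 0.0171). PCNA lost this call without DefH9-IaaM replicate 3 (adjusted p = 0.0632), and NOR and TFT7 without DefH9-IaaM replicate 1 or 3 or control without seeds replicate 1. NOR lost it also without control without seeds replicate 3. ER5, an ethylene-responsive gene of the late embryogenesis abundant type, gave 9.11 ± 0.73 in DefH9-IaaM fruit, against 12.16 ± 0.25 without seeds (SD, n = 3 each), and differed by -3.05 ± 0.61 (adjusted p = 0.0166). It was lost without DefH9-IaaM replicate 1 or 3 or control without seeds replicate 1. TPSI1, induced by phosphate starvation, differed by -2.52 ± 0.45 (adjusted p = 0.0106), lost without DefH9-IaaM replicate 1, while against the control with seeds it came to -0.58 (adjusted p = 0.398). LOC606712, at 1.94 ± 0.44 (adjusted p = 0.0274), lost its call without any 1 of 4 arrays, and LOC543715, which has no further name, at 1.28 ± 0.33 (adjusted p = 0.043), without any 1 of 6. Both rises started in the silent range, with means without seeds of 5.29 for LOC606712 and 4.85 for LOC543715. Counts in this comparison depended on single arrays, with 87 called without DefH9-IaaM replicate 1, 103 without its replicate 3 and 1248 without its replicate 2. They came to 146 and 185 without control without seeds replicate 1 and replicate 3.

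INO-IaaM shares the transgene with DefH9-IaaM and differs in the promoter. Between them 0 of 10038 probe sets were called by limma (0%), with 373 at an unadjusted p under 0.05 and a smallest adjusted p of 0.999. Without INO-IaaM replicate 2, 1 probe set was called. Only 35 probe sets (0.349%) differed by 1 or more. A miss of the threshold does not show equality, and the median 95% interval of a difference reached 0.30 to either side. For PCNA the difference was 0.02 with an interval of -0.38 to 0.43, and for NOR 0.03 with -0.26 to 0.31. For AGAL it was -1.53 with an interval of -4.27 to 1.20, since INO-IaaM gave 3.65, 8.35 and 3.96. In INO-IaaM replicate 2 and DefH9-RolB replicate 2 (7.47) AGAL stood far above the DefH9-IaaM arrays. GolS-1 likewise gave 7.99 in INO-IaaM replicate 2 and 7.11 in DefH9-RolB replicate 2. Of the 92 named genes and probe sets, 4 had an interval that did not include 0 before adjustment. That share is near the 373 of 10038 at an unadjusted p under 0.05 (limma), so no difference is read from these 4. They were TSI-1 (-1.33, -2.39 to -0.27), JERF3 (0.30, 0.07 to 0.52), OVATE (0.55, 0.02 to 1.08) and PME2.1 (0.29, 0.02 to 0.55).

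DefH9-RolB shares the promoter with DefH9-IaaM and carries another transgene. Its arrays, and those of INO-RolB, also stood apart in a technical measure. The difference between the hybridization controls bioC and bioB was 0.69, 0.61 and 0.66 in DefH9-IaaM, against 1.18 and 1.23 in DefH9-RolB. It was 1.21, 1.18 and 1.24 in INO-RolB, and 0.61 to 0.78 on every IaaM and wild-type array. The 25S rRNA signal was 6.61, 7.52 and 6.93 in DefH9-IaaM, against 7.40 and 8.08 in DefH9-RolB, with overlap. The transgene and what sets these arrays apart cannot be told apart. Here 40 probe sets were called (0.398%), 12 higher (0.120%) and 28 lower (0.279%), with 1345 at an unadjusted p under 0.05. The sole named gene among the 40 was GLB2, which fell by 2.37 (limma adjusted p = 0.015) in DefH9-IaaM relative to DefH9-RolB. Without DefH9-IaaM replicate 3, or without DefH9-RolB replicate 1, that call was lost, with an adjusted p of at most 0.12. The 40 came to 5 without DefH9-IaaM replicate 3, 16 without its replicate 1, 9 without DefH9-RolB replicate 1 and 21 without DefH9-RolB replicate 2. In the last 2 fits the lone DefH9-RolB array was assumed to vary like the other groups.

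**Figure D5:**
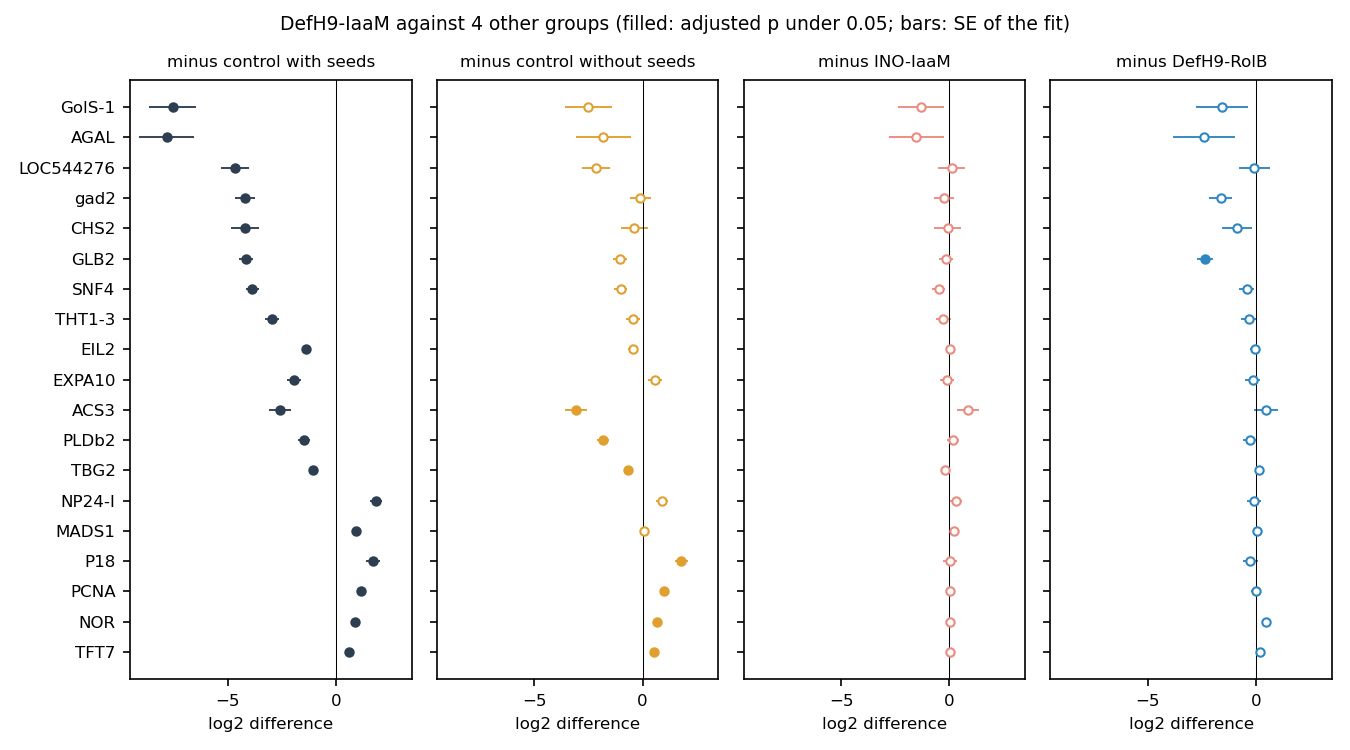
Difference (log2, horizontal axis, bars for the SE of the fit) of DefH9-IaaM from each of 4 groups for 19 named genes, filled where the adjusted p was under 0.05. All 19 are filled against the control with seeds, 7 against the control without seeds, none against INO-IaaM and GLB2 alone against DefH9-RolB.

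Most of the called probe sets, 857 of those that rose and 732 of those that fell, have no gene name here. The largest rise of all, 3.07 ± 0.74 (limma adjusted p = 0.0131), was that of LesAffx.53517.1.S1_at, with 7.73, 8.42 and 9.53 in DefH9-IaaM fruit and 5.19, 6.04 and 5.24 with seeds. Its call was lost without DefH9-IaaM replicate 3 and with the covariate. Les.3700.1.S1_at gave 8.31, 7.60 and 7.89 in DefH9-IaaM fruit, against 4.81, 5.76 and 4.62 with seeds and 3.85 to 5.64 without. It rose by 2.87 ± 0.64 (adjusted p = 0.0091), lost with the covariate, and stood above both controls on every array. The seeded values of 4.81 and 4.62 lay in the silent range, so the size of this rise depends on values near background. LesAffx.22457.1.S1_at differed the most of all called, by -9.05 ± 2.63 (adjusted p = 0.0309), with 6.25, 3.39 and 3.00 in DefH9-IaaM fruit and 13.59, 12.44 and 13.76 with seeds. The call was lost without any 1 of the 6 arrays, and INO-IaaM, at 3.00, 12.22 and 3.04, had 1 array near the seeded level. Les.5728.1.S1_at fell by 8.13 ± 1.72 (adjusted p = 0.00647), to 4.46 ± 0.96 in DefH9-IaaM fruit, against 12.59 ± 0.28 with seeds (SD, n = 3 each), a call lost with the covariate.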

How the data were processed

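Each sample is RNA of pooled tomato fruit on 1 Affymetrix tomato array, labelled with biotin per the labels' protocols. The deposited values are log2 values, 1 per probe set and array. RMA was used by the authors, per the submitters' processing notes, with no version given. RMA normalizes arrays to a common distribution, so a change shared by most transcripts would not show. From these values limma 3.58.1 in R 4.3.3 was fitted over all 17 arrays with 1 mean per group (11 residual degrees of freedom), with Benjamini-Hochberg adjustment across the 10038 tested probe sets. The 108 AFFX and 63 RPTR control probe sets were left out. Python 3.11.15 with pandas 2.3.3 and matplotlib 3.10.9 drew the figures. The labels call the replicates biological. Their number limits the precision, and an exact permutation test of 3 against 3 arrays cannot go below 0.1.

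The platform annotation names 1 gene for 909 probe sets (802 genes), several for 0 and none for 9129, and 885 of the 909 matched RefSeq SLM_r2.1, used for names only. A gene with several probe sets was taken at the brightest. Named genes are the 12 largest rises and falls whose arrays do not overlap and whose higher mean exceeds the silent range, up to 4 called members of each list by p (2 by p in a list with none), the 5 largest each way in the other comparisons, and 2 unnamed probe sets each way. The members and lists were chosen with earlier results of these data known. The fit was tested on simulated data before use. Alternatives covered normalization, filters, thresholds, weights, the variance model, the samples in the fit, left-out arrays, a replicate block and RNA quality.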

Additional observations from a re-analysis of the deposited data

Results flagged for a closer look

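The values of 2 reporter probe sets, which the comparisons leave out, stood far above the wild-type level in DefH9-IaaM fruit. U57609-2 gave at least 9.74 and A00196-1 at least 9.8 on the DefH9-IaaM arrays, against at most 4.36 on every wild-type array. They were as high in INO-IaaM (10.32 to 10.81 and 10.25 to 11.36) and lay at 7.14 to 9.21 and 7.82 to 10.34 in INO-RolB, so they are not particular to DefH9-IaaM. In DefH9-RolB U57609-2 gave 9.48 and 9.62, and A00196-1 gave 3.93 on replicate 1, within the wild-type range, and 10.83 on replicate 2. The sequences these probe sets detect are not used here, and why they are high was not tested.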

How the results depend on the processing

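Calls in DefH9-IaaM against the control with seeds (1776, 954 higher and 822 lower) came to 705 (295 and 410) with the 2 groups alone, 2984 (1732 and 1252) with array weights, 878 (402 and 476) with RNA quality (5' minus 3') as covariate, 680 (272 and 408) at an adjusted p under 0.01, and 448 (127 and 321) with a difference of at least 1. Leaving out 1 array gave 996 to 2120 calls, 452 to 1190 higher and 521 to 930 lower. The total was 997 without DefH9-IaaM replicate 1, 1070 without its replicate 3, 1027 without control with seeds replicate 1 and 996 without its replicate 3. Against the control without seeds (499), the same alternatives gave 20, 1340, 176, 63 and 150, and 87 to 1248 without 1 array. Against DefH9-RolB (40) there were 24 without the dimmest 30 percent of probe sets, 1 with the 2 groups alone, 0 at an adjusted p under 0.01, 21 with a difference of at least 1, and 5 to 35 without 1 array. Against INO-IaaM (0) leaving out 1 array gave 0 to 1. No named difference changed sign. The causes were not tested, though fits with fewer arrays have fewer degrees of freedom.

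Replicate numbers are shared between groups, but same-numbered arrays did not deviate together: the correlations of residuals with the control with seeds were -0.18, -0.20 and 0.04. With the replicate block 1644 probe sets were called against the control with seeds, 362 against the control without seeds, 0 against INO-IaaM and 35 against DefH9-RolB.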

Other observations

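Further lists held few calls in DefH9-IaaM fruit against fruit with seeds (limma, adjusted over all probe sets, with a median of 0.05 over all, and 9.50% called higher and 8.19% lower). Of 7 genes for 14-3-3 proteins, which bind phosphorylated partners, 2 rose and none fell, with a median of 0.04. TFT7 gave 13.18, 13.03 and 13.24 in DefH9-IaaM fruit, against 12.32, 12.71 and 12.61 with seeds, and rose by 0.60 ± 0.11 (limma adjusted p = 0.00237). The second, tft8, at 0.39 ± 0.12 (adjusted p = 0.0425), lost its call without any 1 of 4 arrays, with the 2 groups alone and with the covariate. Of 9 light signalling genes 3 were called lower and none higher, with a median of -0.17. They were CUL4 (-0.29), COP1 (-0.48), part of an E3 ligase of light signalling, and the phytochrome gene PHYA (-0.35), and each lost its call without at least 3 of the 6 arrays in turn. None of 11 photosynthesis genes was called by limma (median -0.18, the lowest adjusted p being 0.119 for LOC543978), and none of 4 metallothionein genes (median 0.04).

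Among 10 jasmonate and lipoxygenase genes 1 rose and 1 fell, with a median of -0.19. opr2 gave 3.93, 4.43 and 4.15 in DefH9-IaaM fruit, against 5.32, 5.33 and 5.34 with seeds, and its fall by 1.16 ± 0.26 (limma adjusted p = 0.00949) was lost with the covariate. Its seeded values lay at the edge of the silent range, so little can be read from this fall. LOX1.1, a lipoxygenase, was called higher at 0.86 ± 0.22 (adjusted p = 0.0156) and lost the call without any 1 of 3 arrays. OVATE, a fruit shape gene, was called higher at 0.79 ± 0.25 (adjusted p = 0.0414), 1 call among 8 meristem and fruit shape genes, and was lost without any 1 of 5 arrays and with the replicate block. Single calls were also made for HSC80 (-0.26) among 9 heat shock genes, whose median was -0.36 with the lowest at -1.04, and RPS25 (0.26) among 11 translation genes (median 0.06). Of 6 phosphate-linked genes IMP1 was called higher (0.62) and PT2 lower (-1.09), with a median of -0.28. Each of these 4 calls was lost without at least 3 of the 6 arrays in turn.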
